A study of Mus musculus with 8 samples.

Results

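Axon guidance genes of the ephrin, netrin and Slit systems were examined in whole spinal cords of E14.5 mouse embryos lacking *Nfix*, the gene of the transcription factor NFIX, and in those of their wild-type littermates. Members were the genes whose symbol, as the only symbol of a transcript cluster in the platform annotation, was that of an ephrin, an Eph receptor, a Slit, a Robo, a netrin or netrin-G, *Dcc*, *Neo1*, an Unc5 receptor, *Rgma*, *Rgmb* or *Draxin*. There were 40 of them among 30176 named genes, 18 ligands and 22 receptors. A transcript cluster groups the probes for 1 transcribed region, and a gene with several clusters was represented by that with the highest mean over the arrays. *Ntn3* and *Ntng2* lay on clusters that carry a further symbol, *Ephb2* was not analysed here, and none of the 3 was a member.

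The data came from 8 Affymetrix arrays, 4 from *Nfix*-/- cords and 4 from *Nfix*+/+ cords, labelled as biological replicates 1 to 4 of each genotype. All embryos were on the C57Bl/6J background, came from matings of heterozygous parents and carried no other stated allele or treatment. The mutant allele came from both parents, so every cell type of the cord and of any tissue left on it carried it. The values are log2 signals normalised by the authors, and genotypes were compared with limma over 65956 clusters, with p adjusted by Benjamini-Hochberg over all of them. The count of arrays, 4 per genotype, limits the precision.

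Guidance molecules steer growth cones. Ephrin-A ligands are anchored to the membrane by a lipid and bind mainly EphA receptors, whereas ephrin-B ligands cross the membrane and bind mainly EphB receptors and EphA4, and both can signal backwards into the cell that carries them. In the spinal cord, netrin 1 attracts commissural axons through DCC and repels through Unc5 receptors, Slits from the floor plate repel axons that carry Robo receptors once they have crossed, and ephrin-B3 at the midline repels axons that carry EphA4 and so keeps them from recrossing. RGM proteins act through neogenin, and draxin binds DCC.

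*Nfix* itself checked the labels. Log2 signals of 8.81 to 8.90 in *Nfix*-/- cords stood against 9.18 to 9.36 in wild-type cords, so that *Nfix* differed by -0.39 on the log2 scale (limma adjusted p = 0.00240, standard error 0.0544). Differences are *Nfix*-/- minus wild-type throughout. With a fold over 1.5 added to the adjusted p, 522 clusters were higher and 829 were lower. This balance runs opposite to the one stated in the study, whose text also gives fewer arrays per genotype than the labels do. Every direction given here rests on the genotype labels, with which the *Nfix* signal was checked. Wild-type replicate 2 stood apart from the other arrays. Its negative-control probe sets had a median of 4.88, against 4.33 to 4.60 in the other 7 arrays, and values without it are given for some of the results it moves. Bright clusters as a whole were slightly higher in *Nfix*-/-. The median difference was 0.09 over the 11778 clusters whose signal exceeded, on 4 or more arrays, the level below which 95% of negative controls lay, and -0.006 after cyclic loess, a scaling that removes differences depending on brightness. Of the 40 members 30 met that cut on brightness.

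*Efnb3* fell and *Efnb2* rose in *Nfix*-/- cords, and the other 38 guidance genes did not pass an adjusted p of 0.05. Over all clusters 11.5% were higher and 10.5% were lower at the same threshold, so the calls among members were fewer than the background share. Among clusters above the negative controls, 14.1% were higher and 0.416% were lower, and *Efnb3* was one of 49 in the lower set. After cyclic loess 382 of these 11778 clusters were higher and 273 were lower, so the small lower set depends on the scaling. No member passed a fold change of 1.5, which 2.05% of all clusters did together with the adjusted p. The 40 differences ran from -0.26 to 0.24, and 31 (77.5%) were positive, against 55.1% of all clusters and 83.9% of bright ones. Their median was 0.06, against 0.025 over all clusters. Over the 30 bright members it was 0.08, against 0.09 over all bright clusters. After cyclic loess the median of the 40 was -0.008, and 16 were positive. In 5 members every *Nfix*-/- array lay above every wild-type array, and in *Efnb3* every *Nfix*-/- array lay below, against 16.1% and 12.0% of all clusters. Without wild-type replicate 2, 1 member was higher, *Slit2*, and 2 were lower, *Efna4* and *Efnb3*. In that fit 7484 of the 65956 clusters were higher and 7596 were lower. In a whole cord, fewer cells of a type and less RNA per cell cannot be told apart.

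**Figure D1:**
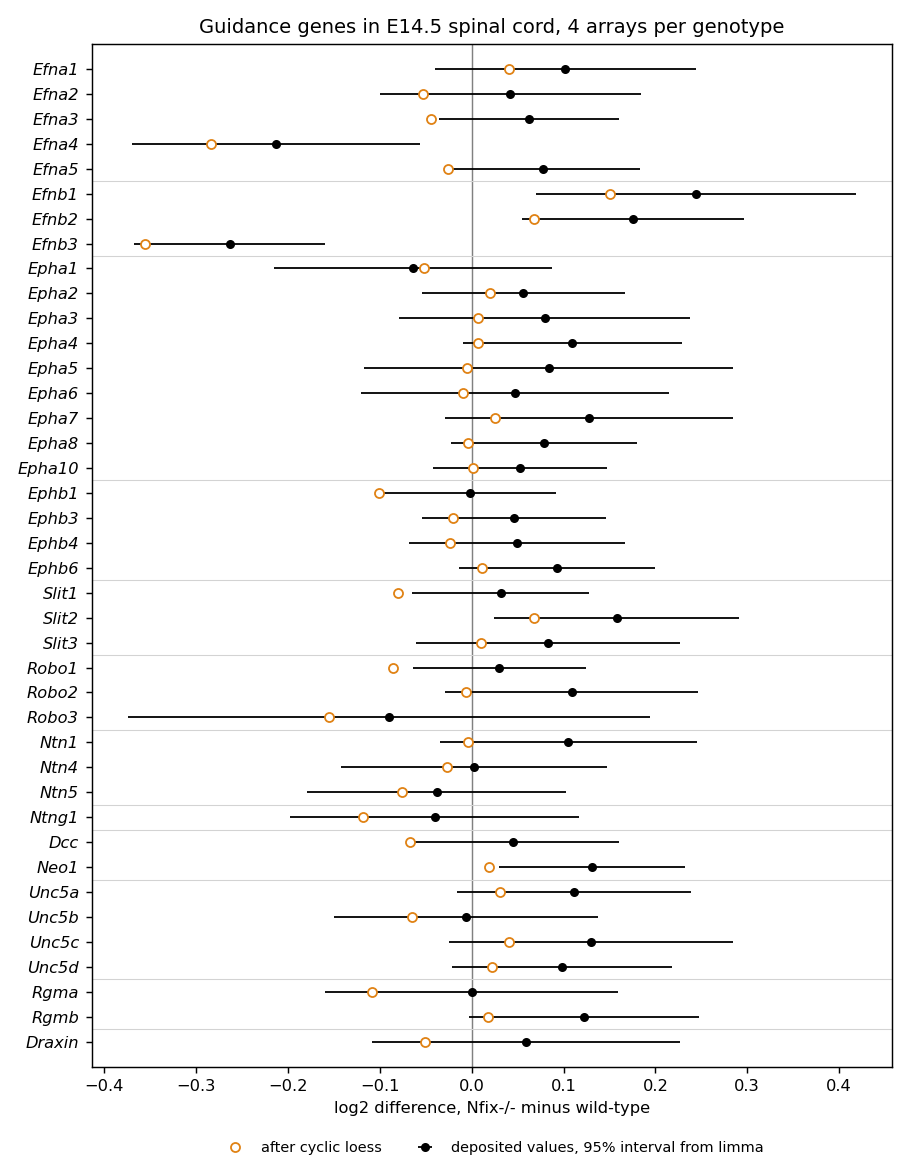
Log2 difference, *Nfix*-/- minus wild-type, for each of 40 guidance genes (filled points with 95% intervals from limma, 4 arrays per genotype) and the same difference after cyclic loess (open points). *Efnb3* lies at -0.26 with an interval that ends below 0, while most other intervals cross 0 and most open points lie left of the filled ones.

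*Efnb3* and *Efnb2* moved in different directions. *Efnb3*, which encodes ephrin-B3, lies on chromosome 11 of mm10 from 69554092 to 69561150. Its log2 signal was 8.14, 8.19, 8.17 and 8.06 in *Nfix*-/- and 8.43, 8.36, 8.42 and 8.40 in wild-type. The groups were well apart, with the highest *Nfix*-/- array below the lowest wild-type array by more than the whole range of either genotype. The mean was 8.14 ± 0.0541 in *Nfix*-/- and 8.40 ± 0.0304 in wild-type (SD, n = 4 each), which puts the *Nfix*-/- signal at 83.3% of wild-type. The log2 difference was -0.26 with a standard error of 0.0455 (95% interval -0.37 to -0.16, limma adjusted p = 0.00560). The adjusted p was past the threshold in 18 of 18 alternative analyses, with differences of -0.36 to -0.23 and adjusted p of 0.00170 to 0.0394. After cyclic loess the difference was -0.36, the lowest among the 40 members.

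*Efnb2* encodes ephrin-B2, a marker of arteries and a ligand in the nervous system. It lies on chromosome 8 from 8617235 to 8661242, 76.1 Mb from *Nfix*. Its signal was 9.29, 9.35, 9.41 and 9.38 in *Nfix*-/- and 9.14, 9.12, 9.18 and 9.28 in wild-type. The groups did not overlap, though wild-type replicate 4 came close to *Nfix*-/- replicate 1. The difference was 0.18 (standard error 0.0529, adjusted p = 0.0461 from limma). It was lost in 12 of 18 alternatives, among them cyclic loess (0.07, adjusted p = 0.443), quantile normalization (0.07, adjusted p = 0.542) and the fit without wild-type replicate 2 (0.15, adjusted p = 0.0853). *Efnb1* on the X chromosome, which encodes ephrin-B1, had 8.50, 8.60, 8.50 and 8.36 in *Nfix*-/- and 8.28, 8.06, 8.32 and 8.32 in wild-type. Its groups did not overlap either, but wild-type replicate 2 was far below the rest. The difference was 0.24 (standard error 0.0762, adjusted p = 0.0521), just short of the threshold. It passed in 4 of 18 alternatives, among them the fit without *Nfix*-/- replicate 4 (0.29, adjusted p = 0.0386), and was 0.18 without wild-type replicate 2 (adjusted p = 0.0746) and 0.15 after cyclic loess (adjusted p = 0.211).

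**Figure D2:**
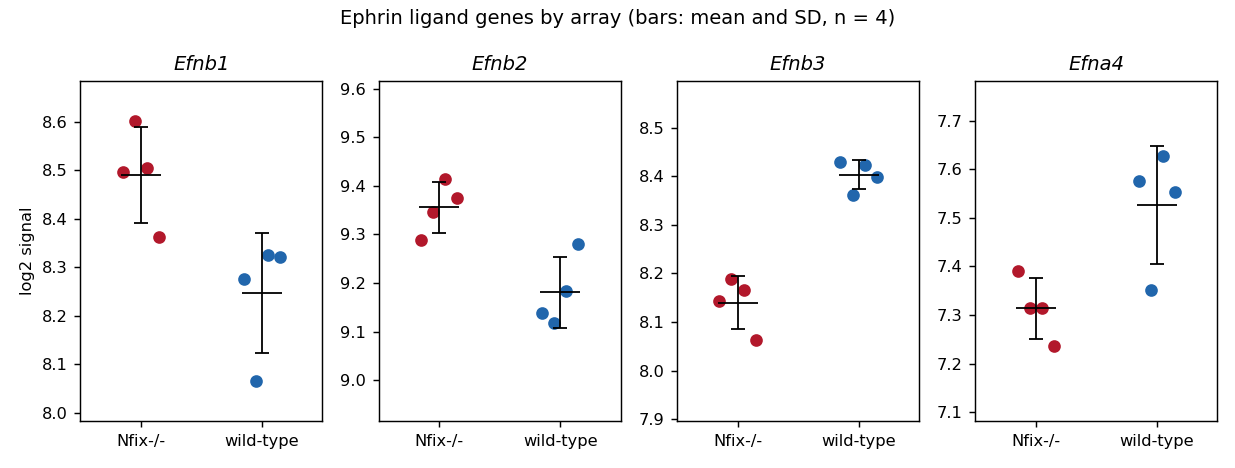
Log2 signal of *Efnb1*, *Efnb2*, *Efnb3* and *Efna4* on each array (points, 4 *Nfix*-/- arrays at left and 4 wild-type arrays at right in each panel), with mean and SD as black bars. Each panel spans the same 0.70 of log2 signal on its own range, and *Efnb3* shows the widest separation relative to its spread.

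A difference between 2 genes on the same array is free of a shift common to all clusters of that array, though not of one that depends on brightness. *Efnb2* minus *Efnb3* was 1.15 to 1.31 in *Nfix*-/- and 0.71 to 0.88 in wild-type, and *Efnb1* minus *Efnb3* was 0.30 to 0.41 in *Nfix*-/- and -0.30 to -0.08 in wild-type. Both within-array differences were thus larger in every *Nfix*-/- array, by 0.44 and 0.51 on average. This had to follow, because *Efnb3* was lower and *Efnb1* and *Efnb2* were higher in every *Nfix*-/- array. It adds no separate evidence. *Efnb1* minus *Efnb2* overlapped between genotypes, at -1.01 to -0.74 in *Nfix*-/- and -1.05 to -0.86 in wild-type. These pairs were chosen after their values were seen and are given without a test.

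The ephrin-A ligands held no call, with *Efna4* the nearest. Its signal was 7.39, 7.31, 7.31 and 7.24 in *Nfix*-/- and 7.58, 7.35, 7.63 and 7.55 in wild-type. Wild-type replicate 2 alone fell into the *Nfix*-/- range. The difference was -0.21 (standard error 0.0684, adjusted p = 0.0569 from limma), -0.27 without wild-type replicate 2 (adjusted p = 0.0112) and -0.28 after cyclic loess (adjusted p = 0.0171). *Efna4* shares a stretch of chromosome 3 with 2 other ephrin-A genes. *Efna1* ends 32.9 kb before *Efna3*, which ends 10.5 kb before *Efna4*, and no other protein-coding gene is annotated between them in GRCm38.p6, the assembly of mm10. Their differences were 0.10 for *Efna1* (adjusted p = 0.273) and 0.06 for *Efna3* (adjusted p = 0.329), so the 3 neighbours did not share a sign. The within-array difference of *Efna3* minus *Efna4* was 1.81 to 1.96 in *Nfix*-/- and 1.57 to 1.77 in wild-type. *Efna2* and *Efna5* differed by 0.04 and 0.08 and did not pass the test, with -0.05 and -0.03 after cyclic loess. Without wild-type replicate 2 *Efna2* was at -0.01. *Efna1* passed the cut on negative controls on 0 arrays.

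The promoter windows of the ephrin genes nearest the threshold are shown because NFI proteins bind DNA at the sequence TTGGC, alone or as an inverted pair. Each window runs from 250 bases before to 50 after an annotated start in RefSeq's GRCm38.p6, is written 5′ to 3′ on the gene's strand, and has TTGGC and its reverse complement GCCAA in capitals.
*Efnb2*, chr8:8661193-8661492, minus strand: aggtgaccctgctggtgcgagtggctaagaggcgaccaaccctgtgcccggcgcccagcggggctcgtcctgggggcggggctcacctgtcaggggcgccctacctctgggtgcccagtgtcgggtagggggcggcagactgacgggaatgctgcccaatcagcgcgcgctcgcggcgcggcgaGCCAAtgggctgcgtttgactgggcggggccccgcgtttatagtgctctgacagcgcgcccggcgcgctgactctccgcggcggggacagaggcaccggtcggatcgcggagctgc
*Efnb1*, chrX:99135811-99136110, plus strand: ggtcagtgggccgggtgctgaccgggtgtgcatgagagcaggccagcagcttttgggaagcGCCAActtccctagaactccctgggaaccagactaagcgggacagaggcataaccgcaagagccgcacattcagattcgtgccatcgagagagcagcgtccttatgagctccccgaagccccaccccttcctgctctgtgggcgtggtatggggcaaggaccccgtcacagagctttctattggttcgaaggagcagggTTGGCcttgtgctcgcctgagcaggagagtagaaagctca
*Efna4*, chr3:89337979-89338278, minus strand: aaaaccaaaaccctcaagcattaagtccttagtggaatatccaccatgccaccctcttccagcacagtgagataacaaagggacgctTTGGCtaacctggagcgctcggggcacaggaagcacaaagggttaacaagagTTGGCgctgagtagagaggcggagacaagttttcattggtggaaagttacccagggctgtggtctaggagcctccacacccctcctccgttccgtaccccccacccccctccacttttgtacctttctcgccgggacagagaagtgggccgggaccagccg
The *Efnb2* window held 1 match, which overlaps a CCAAT box, and those of *Efnb1* and *Efna4* held 2 each. Of the 40 members 34 had a window, 41 windows in all, and 21 of these (51.2%) held at least 1 match on either strand, against 46.7% of 32851 windows of all genes. None of the 41 held the inverted pair, TTGGC and GCCAA with 5 bases between, which 0.0365% of all windows did. Windows of *Efnb3*, *Slit1*, *Ntn1*, *Dcc*, *Unc5d* and *Rgma* were not used here. A match of letters is a description of the window and not a binding site.

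Of the 13 Eph receptors measured none passed the test. The differences of the 9 EphA genes ran from -0.06 to 0.13 and those of the 4 EphB genes from -0.002 to 0.09. *Epha4*, the receptor through which ephrin-B3 acts at the midline, had 8.84, 8.90, 8.95 and 8.91 in *Nfix*-/- and 8.71, 8.89, 8.78 and 8.79 in wild-type. Wild-type replicate 2 alone reached into the *Nfix*-/- range. The difference was 0.11 (standard error 0.0522, 95% interval -0.01 to 0.23, adjusted p = 0.167 from limma), and 0.007 after cyclic loess. *Ephb1*, a receptor of B-type ephrins, differed least of the EphB genes, with 8.64, 8.68, 8.61 and 8.60 in *Nfix*-/- and 8.62, 8.67, 8.63 and 8.62 in wild-type. Its difference of -0.002 had a 95% interval of -0.10 to 0.09 (adjusted p = 0.975), and a further *Ephb1* cluster, not above the negative controls on any array, gave 0.15 (adjusted p = 0.178). *Ephb6*, whose protein lacks kinase activity, was at 0.09 (adjusted p = 0.189). *Ephb4*, the venous partner of ephrin-B2, was at 0.05 (adjusted p = 0.532), at 0.02 without wild-type replicate 2 and at -0.02 after cyclic loess. In *Epha8* and *Epha10* the groups did not overlap, by differences of 0.08 and 0.05 that did not pass the test and were -0.004 and 0.002 after cyclic loess. *Epha1*, *Epha2*, *Epha6*, *Epha10* and *Ephb3* passed the cut on negative controls on 0 arrays.

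Among the Slits and Robos no gene passed the test. *Slit2*, a repellent made by the floor plate and motor neurons, had 8.21, 8.27, 8.22 and 8.31 in *Nfix*-/- and 8.02, 8.22, 8.03 and 8.12 in wild-type. Wild-type replicate 2 was the only wild-type array within the *Nfix*-/- range. The difference was 0.16 (standard error 0.0584, adjusted p = 0.0873 from limma), 0.20 without that array (adjusted p = 0.0300) and 0.07 after cyclic loess (adjusted p = 0.458). *Slit2* also passed after median scaling (0.19, adjusted p = 0.0491). *Slit1* and *Slit3* were at 0.03 and 0.08, and *Slit3* was at 0.03 without wild-type replicate 2. *Robo1* and *Robo2* encode the receptors that read Slits, and are neighbours on chromosome 16 with 844 kb and no protein-coding gene between them. *Robo1* was nearly constant, with 10.02, 10.02, 9.98 and 10.07 in *Nfix*-/- and 10.00, 10.00, 9.97 and 10.01 in wild-type (difference 0.03, 95% interval -0.06 to 0.12, adjusted p = 0.646). *Robo2* was at 9.89, 9.97, 9.95 and 10.12 in *Nfix*-/- and 9.90, 9.94, 9.80 and 9.85 in wild-type, a difference of 0.11 (adjusted p = 0.229) whose highest value came from *Nfix*-/- replicate 4.

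*Robo3* varied most among the members. This receptor of commissural axons before crossing had 7.48, 7.29, 7.02 and 7.01 in *Nfix*-/- and 7.14, 7.15, 7.43 and 7.44 in wild-type. Each genotype held 2 high and 2 low arrays, with SDs of 0.227 in *Nfix*-/- and 0.165 in wild-type, against median SDs over the members of 0.0623 and 0.0678. The difference was -0.09 (standard error 0.124, 95% interval -0.37 to 0.19, adjusted p = 0.647), and the signal passed the cut on negative controls on 3 arrays.

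In the netrin system no gene passed either. *Ntn1*, which encodes netrin 1, had 9.53, 9.48, 9.41 and 9.28 in *Nfix*-/- and 9.30, 9.27, 9.35 and 9.35 in wild-type. Of the *Nfix*-/- arrays 3 lay above all wild-type arrays and replicate 4 lay among them. The difference was 0.11 (standard error 0.0611, adjusted p = 0.250 from limma) and -0.004 after cyclic loess. *Dcc*, the netrin receptor of commissural axons, gave 9.67, 9.69, 9.56 and 9.63 in *Nfix*-/- and 9.53, 9.58, 9.60 and 9.67 in wild-type, overlapping, at a difference of 0.04 (95% interval -0.07 to 0.16, adjusted p = 0.569), and -0.07 after cyclic loess. *Neo1*, which encodes the DCC relative neogenin, had 9.75, 9.83, 9.75 and 9.84 in *Nfix*-/- and 9.69, 9.68, 9.64 and 9.63 in wild-type. Its groups did not overlap, and the difference was 0.13 (standard error 0.0441, adjusted p = 0.0661), reduced to 0.02 after cyclic loess (adjusted p = 0.776). The Unc5 receptors were at 0.11 for *Unc5a*, -0.007 for *Unc5b*, 0.13 for *Unc5c* and 0.10 for *Unc5d* (adjusted p of 0.186 to 0.954). *Unc5b*, *Ntn4* and *Ntn5* did not pass the cut on negative controls on any array, and the 2 netrin genes differed by 0.003 and -0.04. *Ntng1*, a membrane-bound netrin-G, was at -0.04 (adjusted p = 0.717).

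The remaining ligands also gave no call. *Rgma*, a repulsive ligand of neogenin, was at 9.40, 9.41, 9.38 and 9.22 in *Nfix*-/- and 9.30, 9.23, 9.46 and 9.43 in wild-type, a difference of -0.00025 (95% interval -0.16 to 0.16, adjusted p = 0.999 from limma). *Rgmb*, which also serves as a BMP co-receptor, was at 0.12 (adjusted p = 0.145). *Draxin*, a secreted repellent of commissural axons, was at 9.56, 9.48, 9.39 and 9.41 in *Nfix*-/- and 9.44, 9.21, 9.49 and 9.46 in wild-type. Its difference was 0.06 (adjusted p = 0.608), and -0.005 without wild-type replicate 2, the lowest array.

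The array plot also shows a split that crosses the genotypes. *Nfix*-/- replicate 4 and wild-type replicate 2 departed from the other 3 arrays of their genotype with the same sign in 37 of 40 members. Over all clusters the deviations of these arrays from their genotype means correlated at 0.66, so shared departures were not particular to guidance genes. The share of all clusters with the same sign was not counted. These arrays were both the highest of their genotype in 7 members, *Epha5*, *Epha6*, *Slit2*, *Robo2*, *Ntng1*, *Unc5c* and *Unc5d*. They were both the lowest in 16, among them *Efnb1*, *Efnb3*, *Rgma*, *Slit3*, *Ntn1* and *Unc5b*. Both were lowest in 40% of members, against 19.5% of all clusters and 21.3% of those above the negative controls. Both were highest in 17.5% of members, against 18.4% and 26.4%. *Epha5*, an Eph receptor gene expressed by neurons, had 8.38 in *Nfix*-/- replicate 4, where the rest of that genotype had 8.08 to 8.18, and 8.27 in wild-type replicate 2, where the rest had 7.95 to 8.12. These arrays also had the highest negative-control medians, 4.60 and 4.88. The means over 7 motor neuron markers were 6.91 and 6.90 in them. The rest of *Nfix*-/- had 7.04 to 7.07 and the rest of wild-type 7.04 to 7.11. Of these 7 markers 2 met the cut on brightness, and 3 passed the cut on negative controls on 0 arrays. In 8 of 11 marker lists, of motor neurons, dorsal interneurons, progenitors, vessels and other tissues, both arrays had the lowest mean of their genotype. The mean over 7 pan-neuronal markers, all bright, was instead highest of its genotype in *Nfix*-/- replicate 4, at 10.79 against 10.69 to 10.76. In wild-type replicate 2 it was lowest, at 10.61 against 10.63 to 10.67. The part of these levels in the result was not tested, and the genes named were chosen after their values were seen.

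**Figure D3:**
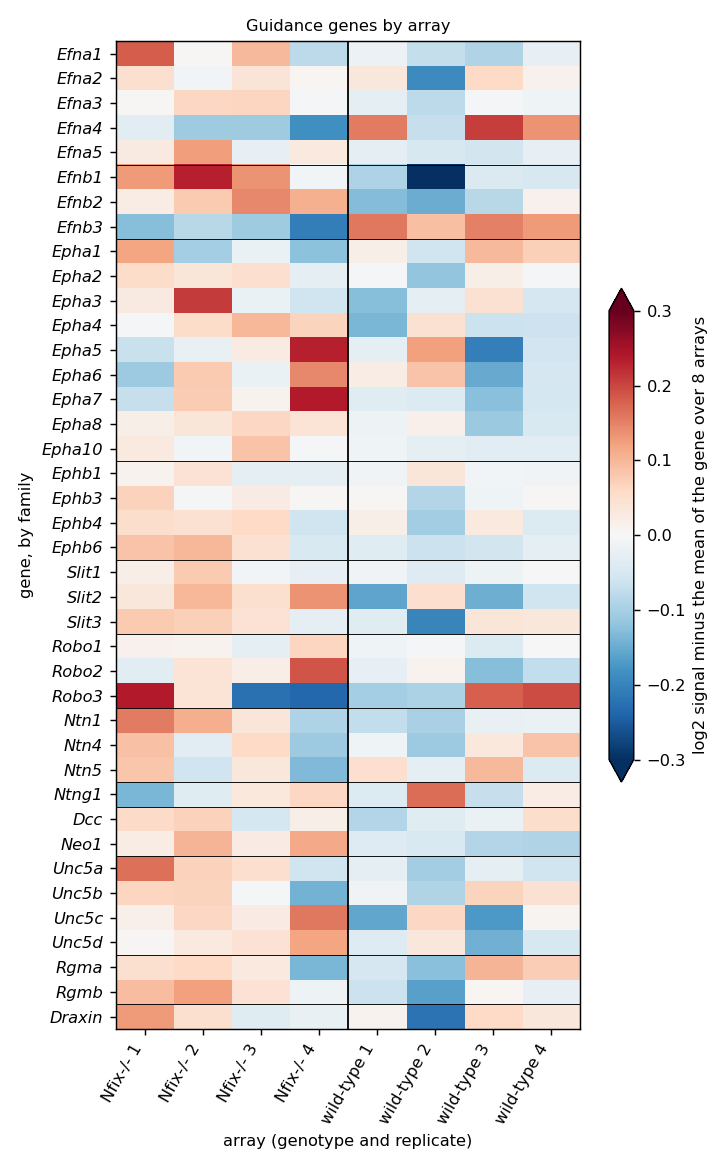
Log2 signal of each of 40 guidance genes minus its mean over the 8 arrays (colour), by array, with *Nfix*-/- arrays left of the line and wild-type arrays right of it. *Efnb3* changes colour at the line, whereas *Robo3* and *Epha5* vary within each genotype.

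**Figure D4:**
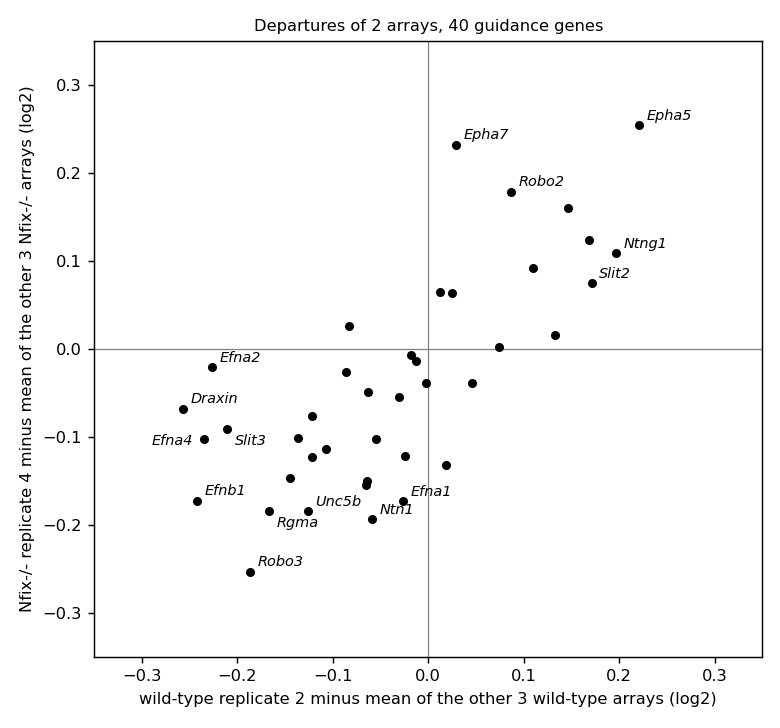
Departure of *Nfix*-/- replicate 4 from the mean of the other *Nfix*-/- arrays (vertical axis, log2) against that of wild-type replicate 2 from the other wild-type arrays (horizontal axis, log2), 1 point for each of 40 guidance genes. In 37 genes both departures have the same sign. Deviations of these arrays from their genotype means also correlated over all clusters, at 0.66.

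Partners of these receptors and ligands were counted from lists. In the same fit 11.5% of all clusters were higher and 10.5% lower. Of clusters above the negative controls 14.1% were higher and 0.416% lower, and 13 of the 15 netrin and RGM partners were among these. None of 16 Eph signalling partners passed the test, with a median difference of 0.05. Of 14 Slit and Robo partners 1 was higher and none lower, *Flrt3*, a coreceptor of Robo1, at 0.18 (adjusted p = 0.0277 from limma). *Flrt3* passed the cut on negative controls on 2 arrays. Of 15 netrin and RGM partners 4 were higher and none lower: the small GTPase gene *Cdc42* at 0.29 (adjusted p = 0.00335), the Unc5 ligand gene *Flrt2* at 0.26 (adjusted p = 0.0195), the actin-binding gene *Ablim1* at 0.17 (adjusted p = 0.0209) and *Trim67*, whose product binds DCC, at 0.15 (adjusted p = 0.0443). After cyclic loess, with 10.0% of all clusters higher and 10.3% lower, *Cdc42* alone of these 5 still passed (0.18, adjusted p = 0.0140), and of the members *Efnb3* and *Efna4* were lower and none was higher.

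Markers of the cells that make or read these cues were compared beside them. Of 6 floor plate markers none passed, with *Shh* at 0.20 (adjusted p = 0.0737), and their mean was 7.25 to 7.38 in *Nfix*-/- and 7.14 to 7.31 in wild-type. *Foxa1* and *Foxa2*, which define the floor plate, passed the cut on negative controls on 0 arrays. *Shh* passed it on 1 array, and 2 of the 6 floor plate markers met the cut on brightness. None of 7 commissural and dorsal interneuron markers passed, nor any of 7 pan-neuronal markers. The motor neuron marker *Mnx1* fell by 0.30 and the progenitor marker *Hes5* fell by 0.46, the only calls among 7 and 8 genes, and *Mnx1* passed the cut on negative controls on 0 arrays. *Efnb2* and *Ephb4* are also expressed in vessels. Of 7 endothelial markers 3 were higher, *Cdh5* at 0.27, *Emcn* at 0.28 and *Sox18* at 0.29, while *Cldn5* was at -0.02 and did not pass. Higher too were 1 of 6 markers of pericytes and smooth muscle and 4 of 7 of meninges and fibroblasts, where 11.5% of all clusters were higher. After cyclic loess these counts were 2, 1 and 3, and *Sox18* no longer passed (adjusted p = 0.105 from limma). *Emcn* passed the cut on negative controls on 0 arrays. Of the meningeal calls *Prrx1* passed it on 0 arrays, *Lum* on 2, *Foxc1* on 5 and *Col3a1* on 8. The pericyte call, *Anpep*, passed it on 3. The means over the list were 7.76 to 7.93 in *Nfix*-/- and 7.56 to 7.76 in wild-type for pericytes, and 7.98 to 8.10 in *Nfix*-/- and 7.79 to 7.91 in wild-type for meninges. The mean over the endothelial markers was 7.98 to 8.14 in *Nfix*-/- and 7.84 to 7.96 in wild-type, without overlap. The pan-neuronal means did not overlap either, at 10.69 to 10.79 in *Nfix*-/- and 10.61 to 10.67 in wild-type. The median endothelial difference was 0.09, against 0.09 over all bright clusters, and was 0.03 after cyclic loess. *Nfix*-/- replicate 4 was lowest of its genotype in the endothelial mean, as in 8 of 11 marker lists. Of 5 sensory ganglion and Schwann cell markers none passed, at means of 8.28 to 8.48 in *Nfix*-/- and 7.81 to 8.36 in wild-type. Of 7 skeletal muscle markers 2 were higher (means of 6.19 to 6.78 in *Nfix*-/- and 5.89 to 6.38 in wild-type), and of 6 cartilage markers 1 was lower (6.08 to 6.23 in *Nfix*-/- and 6.14 to 6.23 in wild-type). These 3 genes, *Myl1*, *Tnnt1* and *Matn3*, passed the cut on negative controls on 0 arrays. The part of these tissues in the ephrin results was not tested.

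The members lay on 16 chromosomes. *Efnb2* and *Unc5d* shared chromosome 8 with *Nfix*, and the nearer, *Unc5d*, lay 55.8 Mb away.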

How the data were processed

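Whole spinal cords of E14.5 *Nfix*-/- and wild-type embryos were profiled on 8 arrays. The authors ran a gene-level SST-RMA in Affymetrix Expression Console (genome version mm10) and deposited log2 values. They were used as they are. Of 72688 deposited values per array, 6732 came from control probe sets, which no test used. Clusters were named from the platform annotation, 30638 with 1 symbol, 2176 with several and 33142 unnamed here, and positions were taken through Entrez identifiers from RefSeq's GRCm38.p6.

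Genotypes were compared with limma 3.58.1 in R 4.3.3 (lmFit, eBayes) over 65956 clusters, with Benjamini-Hochberg adjustment and a threshold of 0.05. The fit was tested on simulated data. Members and lists were chosen with earlier results of these data known. Genes named were those past the threshold and, in each family, the member with the highest mean and that with the lowest p. *Efnb1*, *Efna1*, *Efna2*, *Efna5*, *Epha5*, *Epha8*, *Epha10*, *Ephb4*, *Robo3*, *Slit3*, *Dcc*, *Unc5b*, *Unc5d*, *Ntn4* and *Ntn5*, and partners and markers that did not pass, were named after their values were seen. Marker levels are means of log2 values over the measured genes of a list, and some listed genes are not reported here. Whether the labelled replicates came from separate litters is not stated, so p-values measure the spread between these samples. Alternatives covered the replicate number as a block, an unmoderated test, the prior, array weights, median scaling, quantile normalization, cyclic loess, a cut on brightness, each array left out and the mean over the clusters of a symbol.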

Additional observations from a re-analysis of the deposited data

Results flagged for a closer look

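In 2 of 38 groups of 4 arrays among the named genes, 1 array lay far from the other 3 of its genotype, and chance gives about 1 such group in 20. *Ephb1* was at 8.67 in wild-type replicate 2, with the rest of that genotype at 8.62 to 8.63. *Rgma* was at 9.22 in *Nfix*-/- replicate 4, with the rest of that genotype at 9.38 to 9.41, and its difference was 0.0457 without that array.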

How the results depend on the processing

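*Efnb3* passed the adjusted p in 18 of 18 alternatives but not a fold of 1.5, and the cause of the changes below was not tested. The count of guidance genes higher, 1 as reported, was 0 with the replicate block, 2 with the methods' t-test, 3 with a trended robust prior, 4 with array weights, 0 after quantile normalization, 0 after cyclic loess and 3 over clusters above the negative controls only. It was 0 with cyclic loess and that cut together, an alternative chosen after seeing the data, 0 at a fold over 1.5 and 0 to 1 with an array left out. After median scaling the 1 was *Slit2* in place of *Efnb2*, and with an array left out it was *Efnb1*, *Slit2* or *Efnb2*. The count lower, 1 as reported, was 2 with the trended prior, with array weights, after cyclic loess, with the brightness cut and with both together, 0 at a fold over 1.5 and 1 to 2 with an array left out. *Efnb2* failed the threshold without each array in turn except wild-type replicate 4. Over all clusters, 7602 higher and 6918 lower became 2426 and 74 with the brightness cut, 204 and 132 with cyclic loess as well and 522 and 829 at the fold, and 4793 to 7484 and 4865 to 7596 with an array left out. They became 7402 and 5813 with the methods' t-test, 8263 and 6758 with the trended prior and 10026 and 9001 with array weights. After median scaling they were 7097 and 4867, after quantile normalization 5876 and 5419 and after cyclic loess 6603 and 6782. Some differences that had not passed changed sign, among them, after cyclic loess, those of *Dcc*, *Ephb4*, *Efna2*, *Efna5* and *Epha8* given with the results. After quantile normalization *Efna3* was at -0.0416, *Slit1* at -0.089, *Robo1* at -0.087, *Robo2* at -0.00729, *Ntn1* at -0.00389 and *Draxin* at -0.0506, and after cyclic loess, with or without the brightness cut, *Efna3* was at -0.0444, *Slit1* at -0.08, *Robo1* at -0.0856, *Robo2* at -0.00603, *Ntn1* at -0.00372 and *Draxin* at -0.0506. *Ephb1* was at 0.00914 with array weights, 0.0263 after median scaling and 0.0718 as the mean over its clusters, and *Rgma* at 0.0284 after median scaling. With an array left out *Ephb1* ran from -0.017 to 0.00911, *Ntng1* from -0.0701 to 0.00882, *Rgma* from -0.0419 to 0.0457 and *Draxin* from -0.00519 to 0.0886. Deviations of same-numbered arrays of the 2 genotypes correlated at 0.47 for replicate 1, -0.15 for replicate 2, 0.04 for replicate 3 and -0.08 for replicate 4. The correlation was thus above 0.1 in 1 of 4 pairs, and the replicate numbers were not read as pairs. Under the replicate block 0 guidance genes were higher (*Efnb2*, adjusted p = 0.0693 from limma) and 1 lower (*Efnb3*, adjusted p = 0.0283). In that fit 5439 of all clusters were higher and 5796 lower.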
